A study of Mus musculus with 12 samples.

Results

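The probe sets described here are those of the Affymetrix Mouse Genome 430 2.0 array whose identifiers are absent from the table of the smaller 430A array, control probe sets left out. They number 22411 of the 45037 probe sets of the 430 2.0 table, the other 22626 being in both tables. Of the 22411, 14565 carried 1 gene symbol, 241 several and 7605 none. They read 9547 named genes, of which 5744 had no probe set in the 430A table and 3803 had one there as well. These additional probe sets were measured on 3 liver arrays of mice 10 weeks of age. The array called normal 4 is from a mouse with the Fah and p21 genes knocked out that stayed on the drug NTBC. The arrays called double knockout 3 and double knockout 4 are from mice of the same 2 knockouts taken off NTBC and given water for 14 days. The normal liver thus carries both knockouts too, and the comparison is of livers off NTBC with 1 liver on it, not of mutant with wildtype. The titles call the arrays biological replicates, and the sources used here do not give the strain or sex of the mice or the form of the knockout alleles.

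The enzyme made from Fah, fumarylacetoacetate hydrolase, completes the breakdown of tyrosine, and NTBC blocks that pathway further upstream. Without the enzyme and without the drug, reactive metabolites build up inside hepatocytes, damage DNA and consume glutathione. p21, the product of Cdkn1a, binds cyclin-dependent kinases and holds damaged cells out of the cell cycle, so a liver without it lacks one of the main brakes on division. A cell that divides makes kinetochore, spindle and cytokinesis proteins in a burst before mitosis, and these are nearly silent in the resting adult liver.

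Signals are the authors' linear intensities, 1 per probe set and array. The additional probe sets were dim: their median signal was 29.3 in normal 4, 31.5 in double knockout 3 and 26.4 in double knockout 4, against 160.9, 206.3 and 185.1 for the probe sets in both tables. A log2 difference is log2(signal + 3.8) in a double knockout liver minus the same in normal 4, and a fold change is the linear form of the mean of both differences, so that a fold over a dim normal signal is compressed and depends on the 3.8. Only probe sets at or above the 40th percentile of the mean level of the 2 groups, corresponding to a signal of 32.1, were tested. That left 10106 of the 22411 (45.1%), against 74.8% of the probe sets in both tables, and 12305 were too dim to be tested. A probe set is said to have risen or fallen where limma's adjusted p, over all 27022 probe sets of the array that were tested, was under 0.05. With 1 normal array this p assumes that normal livers vary as the double knockout livers do, and the p-values measure only the spread between these samples. The count of calls depends strongly on how limma models that spread. It was 704 with the dependence on signal level modelled and 200 without it, 198 of them shared, so calls kept in the second fit are pointed out below. On simulated data of the same size the first fit made false calls at more than the intended rate in most runs, and their number varied widely from run to run, so part of the 704 may be false.

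The 3 arrays were checked against their labels with probe sets that lie in both tables. Fah had signals of 339.1 in normal 4, 198.7 in double knockout 3 and 121.7 in double knockout 4, a difference that limma did not call (adjusted p = 0.131). For Cdkn1a, 1 probe set was near background on every array (12.7, 4.4 and 5.5) and the other had 389.1, 3788.7 and 3654.9, a 9.48-fold rise in livers labelled as p21 knockouts (adjusted p = 0.000317) that was also called without the trend. All 3 mice are labelled as knockouts of both genes, and the sources used here do not say where these probe sets lie relative to the deleted parts, so they check nothing about the labels. Of the 9 hepatocyte markers found 8 had signals of 1771 or more on every array, Ass1 had 319.4, 223.5 and 166.6 by its additional probe set, and Tat, a tyrosine-degrading aminotransferase, was the one called, falling by 2.04 on the log2 scale. Among markers of other liver cells read over the whole array, 8 of 16 stellate cell and matrix genes rose (summed signal 11971.1, 28472 and 26194.8). Of 12 macrophage genes 3 rose, Cd14, Cd68 and Lyz2 (summed signal of the 12 19103.8, 28004.9 and 22811.4). Marco (445.3, 415.8 and 216.7) and Ccr2 (238.9, 230.7 and 160.5) were lower in both double knockout livers, without a call. Of 6 cholangiocyte genes 2 rose, Epcam and Sox9 (summed signal of the 6 362.7, 799.2 and 687.9). Both of these calls are by shared probe sets. The additional probe set of Sox9 (49.3, 32.8 and 17.4) was not called, nor was that of Epcam. Of the 6 erythroid genes found 2 were tested, the others being too dim. Alas2 fell (2436.4, 164.2 and 142.7), and Klf1 was not called (78.1, 51.7 and 17.7). Of the lymphocyte and neutrophil markers found, 4 of 10 and 6 of 8 were bright enough to be tested, and limma called none of these, 1 and 2 of them passing an unadjusted p under 0.05. Among the untested lymphocyte markers Cd79b had 4.4, 61.4 and 57.4 and Cd4 had 39.1, 2.8 and 6.5. For adipose tissue, 2 of the 3 adipose markers found were below a signal of 10 on every array. In whole tissue, fewer cells of a type and less RNA per cell cannot be told apart.

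Of the 10106 tested probe sets, 704 were called, or 6.97%, against 11.1% of all 27022 tested on the array and 13.5% of those in both tables. The 704 comprised 440 that rose (4.35%, against 7.12% of all tested) and 264 that fell (2.61%, against 3.96%). When the arrays were scaled to a common median, the share of rises among the calls went from 62.5% to 52%, and the median difference of the tested additional probe sets from -0.01 to -0.14. By the simpler rule of a difference of at least 2-fold the same way in both double knockout livers, 1252 qualified (12.4%, against 14.2% over the whole array), 728 higher (7.2%, against 8.9%) and 524 lower (5.19%, against 5.27%). Each liver taken alone gave more: 1732 were at least 2-fold higher and 925 lower in double knockout 3, and 885 higher and 1249 lower in double knockout 4, while 13 went past 2-fold in opposite directions. Of the 704 called, 662 were also at least 2-fold in both livers. In 135 of the 440 rises the normal signal was below 32.1, and in 11 of the 264 falls both double knockout signals were.

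**Figure D1:**
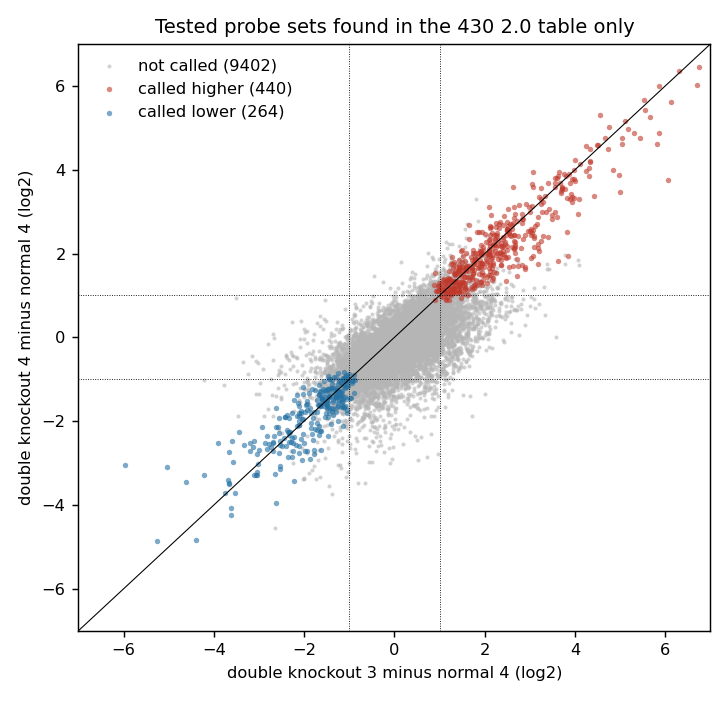
Each point is 1 of the 10106 tested probe sets found in the 430 2.0 table only, placed by its log2 difference from normal 4 in double knockout 3 (horizontal) and double knockout 4 (vertical). Red marks the 440 that rose and blue the 264 that fell by limma, dotted lines mark 2-fold, and the diagonal marks equal differences in both livers; the bulk of the grey cloud lies slightly below the diagonal.

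Counted by gene, with the brightest additional probe set standing for each, 495 of 5458 tested genes were called (9.07%), 314 higher (5.75%) and 181 lower (3.32%). Genes with no probe set in the 430A table, which only these arrays could measure, gave 206 rises (6.74%) and 105 falls (3.43%) among 3057 tested (10.2% called). Genes that 430A also reads gave 108 rises (4.5%) and 76 falls (3.17%) among 2401 (7.66% called). Whether these rates differ was not tested.

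Genes of G2 and mitosis gave the most calls of any list. Of 62 such genes with an additional probe set, 46 were tested, 29 rose, none fell by limma's call, and the median difference over the 46 was 2.05 on the log2 scale (2.21 in double knockout 3 and 1.97 in double knockout 4), beside -0.01 over all tested additional probe sets and a background of 5.75% of genes rising. No tested member of the group was lower at an unadjusted p under 0.05. Of the 29, 20 were also called without the trend on signal level, and 23 belong to genes that have no probe set in 430A. The normal signal was below 32.1 for 18 of the 46, which passed the filter through the double knockout livers alone and so had to differ. Of the other 28, 16 rose and none fell (median 1.61), and none was lower at an unadjusted p under 0.05. Of all 62, 16 members had mean levels too low to be tested.

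The kinetochore is the protein platform that ties a chromosome to the spindle, and the 3 largest rises of the list were of genes that act there. Cenpi, a protein of the inner kinetochore, had signals of 2.8 in normal 4, 225.1 in double knockout 3 and 231.6 in double knockout 4, a rise of 5.14 ± 0.48 (SE) on the log2 scale (adjusted p = 0.00086). Cenpe, the kinesin that moves chromosomes to the spindle equator, had 8, 661.6 and 285.1 in the same order, a rise of 5.22 ± 0.54 (adjusted p = 0.00132). For Bub1b, a kinase of the spindle checkpoint, the signals were 2.7, 278.5 and 172.2 (log2 rise 5.1 ± 0.53). In each of the 3 genes the normal liver was near background and both double knockout livers were well above it, double knockout 3 being the higher for Cenpe and Bub1b. Ska3, of the complex that couples kinetochores to microtubules, had 12.4, 218.1 and 185.5. Kntc1, a checkpoint protein of the outer kinetochore, had 28.1, 264 and 185.7. Among further centromere genes Cenpu rose by 2.54, Cenpp by 2.2, Knl1 by 2.06 and Cenpw by 1.5 on the log2 scale, while Cenpk (0.76), Cenpl (-0.08) and Cenpo (-0.66) were not called.

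Enzymes and cohesion factors that control the separation of chromosomes rose with them. Espl1, separase, which cuts cohesin to let sister chromatids part, had 9.5 in normal 4, 258.1 in double knockout 3 and 215.4 in double knockout 4 (log2 rise 4.17 ± 0.44, adjusted p = 0.00142). Esco2, the acetyltransferase that makes cohesion stable, had 99.4, 1325.2 and 1154.1. Sgo2a, a shugoshin that shields centromeric cohesin, had 37, 518.6 and 443.8. In all 3 genes the double knockout livers lay close to each other and 11.9-fold or more above the normal liver in their mean, on the scale with the offset. Smc2, a core condensin subunit, rose by 2.52 on the log2 scale, and Fbxo5, an inhibitor of the anaphase-promoting complex, by 1.55.

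Other members of the list act as motors, spindle kinases or in cytokinesis. Kif20b, a kinesin of late cytokinesis, had 32, 703.3 and 513.6 in normal 4, double knockout 3 and double knockout 4 (log2 rise 4.08 ± 0.34, adjusted p = 0.000571). Arhgap11a, a GTPase-activating protein for RhoA, had 87.1, 1717.3 and 1414.6 (log2 rise 4.1 ± 0.27, adjusted p = 0.000272). Depdc1b, a protein that regulates cell adhesion at mitotic entry, had 5.6, 234.9 and 251.5 (log2 rise 4.71 ± 0.45). Gas2l3, a cytoskeletal linker of cytokinesis, had 86.6, 1018 and 681.9. Nek2, a kinase of centrosome separation, had 244.6, 2003.4 and 1971.5, and was thus readily measured in the normal liver as well. Cdca8, the borealin subunit of the chromosomal passenger complex, had 188.6, 1367 and 1270.7. The double knockout livers were several-fold above the normal liver in each of these 6 genes. Other kinesins of the list were mixed. Kif18b had 46.7, 299 and 266.1 (log2 rise 2.5 ± 0.35, adjusted p = 0.00489 by limma), a call kept without the trend. Kif24 was not called (74.2, 67.9 and 48.3), and Kif18a was under 1 on every array and not tested.

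The 17 tested members without a call include genes whose double knockout livers differed from each other. Top2a, the topoisomerase that untangles chromosomes, had 46.2 in normal 4, 234.8 in double knockout 3 and 62 in double knockout 4 (adjusted p = 0.319), and Incenp, the scaffold of the passenger complex, had 20.6, 96.7 and 27.7 (adjusted p = 0.413). In both, only double knockout 3 stood clear of the normal liver. Others had nearly level signals on all 3 arrays, as Cenpl with 209.9, 194.6 and 201.4 and Tpx2 with 82.6, 68.2 and 66.8. Among the 16 members too dim to be tested, most were at least 2-fold higher in both double knockout livers. None of them was 2-fold lower in both. Cdc25c had 4.7, 130.8 and 87.8, Racgap1 was under 1 on every array, and Kif15 was highest in the normal liver at 54.8, with 26 and 2.7 in the double knockout livers. The summed signals of stellate cell and macrophage markers, given above, were also higher in both double knockout livers, though single macrophage markers such as Marco were lower. Any part of these cells in the rise of mitosis genes was not tested.

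**Figure D2:**
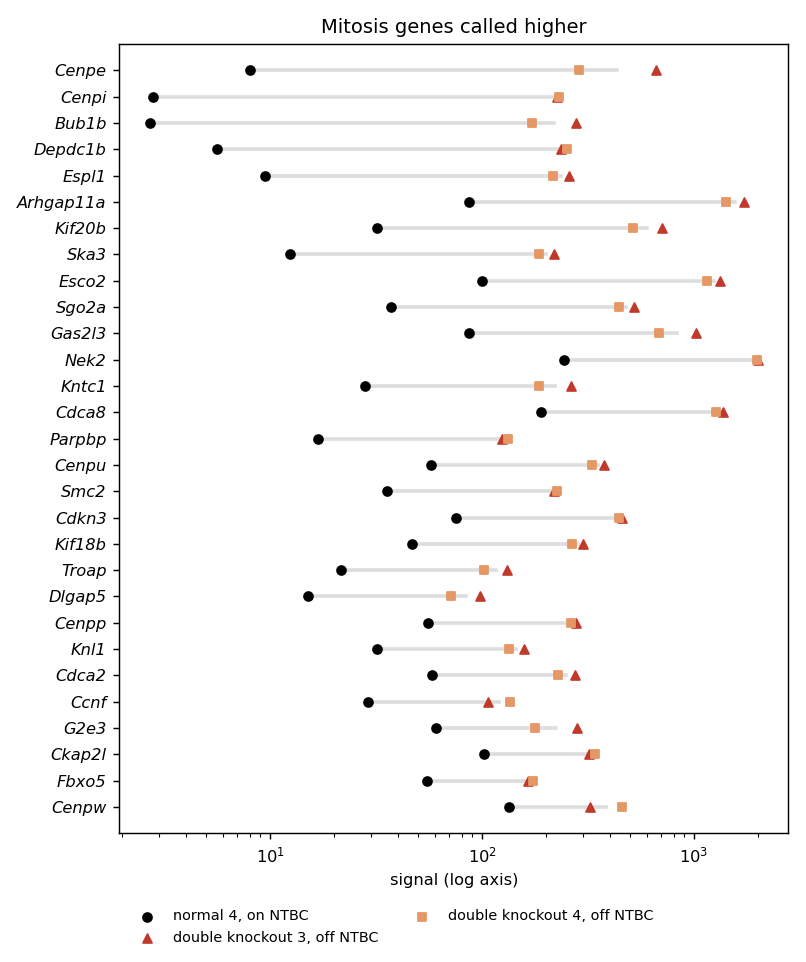
Signals (log axis) of the 29 mitosis genes that rose, 1 row per gene and 1 point per array, ordered by the size of the mean difference; the grey line runs from normal 4 to the geometric mean of the double knockout livers. In every row both double knockout points lie to the right of the normal point, and the largest spans belong to Cenpe, Cenpi and Bub1b.

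Genes switched on for mitosis are known to carry a cell cycle homology region (CHR) near the transcription start, often beside a CCAAT box. The promoters of the 4 mitosis genes among the largest rises not read by 430A and listed in RefSeq's promoter table are shown because they are the members of this group that only these arrays measured at such a size. Each runs from 250 bases before to 50 after the start on assembly GRCm38.p6, 5′ to 3′ on the gene's strand. Capitals mark CHR letters (TTTGAA or TTTCGAA) and CCAAT letters, each searched on both strands, so that a box on the opposite strand reads ATTGG; neither motif overlaps the other in these windows.
Cenpi chrX:134307834-134308133 (+ strand): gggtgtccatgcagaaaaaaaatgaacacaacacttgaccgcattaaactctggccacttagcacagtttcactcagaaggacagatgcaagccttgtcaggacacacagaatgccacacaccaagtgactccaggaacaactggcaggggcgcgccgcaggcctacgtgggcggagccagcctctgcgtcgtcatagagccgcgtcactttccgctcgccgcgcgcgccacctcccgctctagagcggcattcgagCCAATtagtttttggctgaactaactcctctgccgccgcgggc
Espl1 chr15:102296043-102296342 (+ strand): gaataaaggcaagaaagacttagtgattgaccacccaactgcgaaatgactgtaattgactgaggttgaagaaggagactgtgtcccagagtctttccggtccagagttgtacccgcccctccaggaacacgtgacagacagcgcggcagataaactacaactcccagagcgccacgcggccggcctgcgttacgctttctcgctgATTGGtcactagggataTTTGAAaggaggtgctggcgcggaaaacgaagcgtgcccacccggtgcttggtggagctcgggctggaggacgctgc
Arhgap11a chr2:113848612-113848911 (- strand): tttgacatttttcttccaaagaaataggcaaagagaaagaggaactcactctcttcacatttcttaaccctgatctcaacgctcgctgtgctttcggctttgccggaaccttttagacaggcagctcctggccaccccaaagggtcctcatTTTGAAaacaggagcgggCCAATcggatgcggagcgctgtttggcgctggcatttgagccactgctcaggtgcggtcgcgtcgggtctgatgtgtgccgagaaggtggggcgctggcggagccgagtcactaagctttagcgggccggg
Kif20b chr19:34922108-34922407 (+ strand): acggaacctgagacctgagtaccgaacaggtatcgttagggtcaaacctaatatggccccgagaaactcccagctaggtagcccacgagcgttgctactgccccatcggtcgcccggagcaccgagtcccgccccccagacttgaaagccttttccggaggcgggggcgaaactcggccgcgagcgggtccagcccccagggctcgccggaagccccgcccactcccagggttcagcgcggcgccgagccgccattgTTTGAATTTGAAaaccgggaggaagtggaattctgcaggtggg

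In Espl1 a CCAAT box began 44 bases and a CHR 27 bases before the start, and in Arhgap11a a CHR began 99 and a CCAAT box 81 bases before it. Kif20b had 2 adjoining CHR matches, beginning 7 and 13 bases after the start, and no CCAAT in this window, while Cenpi had a CCAAT box 7 bases after the start and no CHR. Promoters were listed for 53 of the 62 mitosis genes with an additional probe set. Of their 58 promoters, 38 (65.5%) held a CHR, 42 (72.4%) a CCAAT box and 30 (51.7%) both, against 18.5%, 37.4% and 7.23% of all 32851 promoters in the table. Among the 26 promoters of the mitosis genes that rose the shares were 65.4%, 80.8% and 53.8%, so the CHR was as frequent over the whole list as over the members called. The 295 promoters of all genes with an additional probe set that rose held a CHR in 16.3%, close to the share over all promoters. A match is a run of letters in a window and not a measured binding site.

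DNA replication and repair genes moved the same way in fewer members. Of 25 tested genes of G1/S and DNA replication 6 rose and none fell by limma's call (median 0.85, with 10 higher and 0 lower at an unadjusted p under 0.05), against 5.75% of genes rising. For 3 of the 25 the normal signal was below 32.1, and of the other 22, 5 rose (median 0.73). Mcm5, a subunit of the replicative helicase, had 288.6 in normal 4, 1633.8 in double knockout 3 and 1747.6 in double knockout 4 (log2 rise 2.53 ± 0.24, adjusted p = 0.000952). Atad2, a bromodomain ATPase and E2F target, had 119.1, 1016.2 and 1076.1 (log2 rise 3.09 ± 0.26). Clspn, the adaptor that activates the checkpoint kinase Chk1, had 50.1, 289 and 249.3, and Dscc1, part of a clamp loader for cohesion, had 14.7, 82.4 and 90.3. These 4 genes were level between the double knockout livers, and all were called without the trend as well. E2f7, a repressor of E2F targets, rose by 2.02 and Gins2, another helicase component, by 2 on the log2 scale.

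Among 24 tested DNA repair and checkpoint genes 4 rose and none fell by limma's call (median 0.54), against 5.75% of genes rising. At an unadjusted p under 0.05, 6 were higher and 0 lower. The normal signal was below 32.1 for 1 of the 24, Ercc6l, and of the other 23, 3 rose (median 0.53). Rad18, the ubiquitin ligase that starts translesion synthesis, had 53.2 in normal 4, 302.1 in double knockout 3 and 417.8 in double knockout 4 (log2 rise 2.66 ± 0.36, adjusted p = 0.00411). Ercc6l, which despite its name is a DNA translocase acting on chromatin bridges in anaphase, had 9.6, 173 and 152 (log2 rise 3.63 ± 0.48). Tonsl, which loads repair proteins at stalled forks, rose by 2.04 and Mdc1, a scaffold at double-strand breaks, by 1.22, and neither call was kept without the trend. Of 15 tested p53 targets 3 rose and none fell by limma's call (median 0.9, with 7 higher and 0 lower at an unadjusted p under 0.05), against the same 5.75%. Eda2r, a receptor of the TNF receptor family, had 50.1, 626 and 744.5 (log2 rise 3.67 ± 0.31, adjusted p = 0.000549). Ddit4l, an inhibitor of mTOR signalling, had 83, 3140.5 and 2701.7 (log2 rise 5.07 ± 0.25, adjusted p = 0.000112). Both genes were more than 10-fold above the normal liver in each double knockout liver, while Sulf2, a sulfatase of heparan sulfate, rose by 1.01 on the log2 scale (877.8, 1792.6 and 1739). Apart from Eda2r, none of the 17 tested genes of apoptosis and the TNF receptor family was called by limma, 2 being lower at an unadjusted p under 0.05, and the death ligand Tnfsf10 had 163.2, 65.7 and 59 (adjusted p = 0.103). All 3 tested cell cycle inhibitors were without a call by limma and at an unadjusted p of 0.05 or more; E2f5 had 348.1, 239 and 170.8.

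Nrf2 is the transcription factor that turns on glutathione and export genes when reactive compounds accumulate. Few of its targets fall to the additional probe sets, but of the 9 that do all were tested and 5 rose (median 1.49), none falling by limma's call or at an unadjusted p under 0.05, against 5.75% of genes rising. For 2 of the 9 the normal signal was below 32.1, and of the other 7, 3 rose (median 1.15). Slc7a11, the transporter that imports cystine for glutathione synthesis, had the largest rise by an additional probe set among the genes named here, with 17.7 in normal 4, 2315.9 in double knockout 3 and 1867.7 in double knockout 4 (log2 rise 6.6 ± 0.29, adjusted p = 6.67e-05). Abcc4, an export pump for conjugates, bile acids and cyclic nucleotides, had 397.9, 13324.6 and 9766.4 (log2 rise 4.83 ± 0.26, adjusted p = 0.000172). Abcc5, a related pump, had 8.6, 162.6 and 179.7 (log2 rise 3.82 ± 0.48). The double knockout livers were 14.1-fold or more above the normal liver in their mean for these 3 transporters. Nfe2l2, the gene of Nrf2 itself, had 68, 314.8 and 442.7 (log2 rise 2.39 ± 0.36), and Pir, a nuclear iron-binding protein, had 811.7, 2170.5 and 2420.7 (log2 rise 1.49 ± 0.23). The calls of Nfe2l2 and Pir were not kept without the trend.

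Abcc4 had no probe set in 430A and was the brightest of the 15 largest rises, and RefSeq lists 2 starts for it. Both promoters are given with the letters of the antioxidant response element core (TGACNNNGC, either strand) in capitals, on GRCm38.p6 and 5′ to 3′ on the gene's strand.
Abcc4 chr14:118706170-118706469 (- strand): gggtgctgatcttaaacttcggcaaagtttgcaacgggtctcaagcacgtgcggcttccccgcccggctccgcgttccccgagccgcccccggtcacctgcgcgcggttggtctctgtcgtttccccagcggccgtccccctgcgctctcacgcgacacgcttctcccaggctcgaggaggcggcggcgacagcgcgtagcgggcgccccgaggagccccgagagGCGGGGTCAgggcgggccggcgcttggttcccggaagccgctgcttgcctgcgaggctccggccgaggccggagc
Abcc4 chr14:118676882-118677181 (- strand): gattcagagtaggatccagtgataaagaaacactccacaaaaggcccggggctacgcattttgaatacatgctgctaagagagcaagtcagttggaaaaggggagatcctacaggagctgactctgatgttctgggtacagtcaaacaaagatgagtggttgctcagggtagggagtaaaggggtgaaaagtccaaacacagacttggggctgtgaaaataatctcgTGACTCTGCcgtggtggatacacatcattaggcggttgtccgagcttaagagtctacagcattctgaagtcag

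Each held 1 match, beginning 25 and 23 bases before the respective start, while the listed promoter of Slc7a11 held none. Over the 11 promoters of the 9 Nrf2 list genes 5 (45.5%) held the core, against 12.4% of all promoters and 18.3% of the 295 promoters of genes that rose. The core also occurs at 26.9% among the 26 promoters of mitosis genes that rose, and these are counts of short letter runs in few promoters.

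Genes of the ATF4 and unfolded protein response were mostly level: 2 of 8 rose (median 0.05). This and the shorter lists below are likewise to be read against 5.75% of genes rising and 3.32% falling. They were Slc7a1, an importer of arginine and lysine (98.2 in normal 4, 419.1 in double knockout 3 and 273.5 in double knockout 4), and Mthfd1l, a mitochondrial folate enzyme (196, 498.5 and 448.6). Both double knockout livers exceeded the normal liver, and neither call was kept without the trend. None of the 14 tested heat shock proteins and cochaperones was called by limma, and 1 was higher at an unadjusted p under 0.05. The most changed by p, Hspa4l, had 186.7, 461.4 and 305.1 (adjusted p = 0.127).

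The list with the most falls was that of amino acid breakdown, the urea cycle and gluconeogenesis. Of its 18 tested genes 9 fell and none rose by limma's call, against a background of 3.32% of genes falling. The median was -1.18, with -1.13 in double knockout 3 and -1.32 in double knockout 4. At an unadjusted p under 0.05, 10 were lower and 1 was higher. The higher gene was Gpt2, with 895.4 in normal 4, 1463.4 in double knockout 3 and 1943.6 in double knockout 4. Only 2 of the 9 calls, Amdhd1 and Kynu, were kept without the trend.

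The kynurenine pathway of tryptophan breakdown holds 3 of the 9. Kynu, kynureninase, had 4059.1 in normal 4, 571.1 in double knockout 3 and 793.2 in double knockout 4, and fell by 2.59 ± 0.28 on the log2 scale (adjusted p = 0.00155). Afmid, kynurenine formamidase, had 2075.7, 477.5 and 519.1, and Tdo2, which starts the pathway, had 12167.3, 5313.7 and 4905.8. All 3 were lower in both double knockout livers but remained well above the filter level. Amdhd1, an enzyme of histidine breakdown, had 1033.5, 157.1 and 181.3 and fell by 2.59 ± 0.3 (adjusted p = 0.00198). Pck1, the regulated enzyme of gluconeogenesis, had 6945.7, 912.7 and 1582.6 and fell by 2.53 ± 0.34 (adjusted p = 0.00381). The other 4 were Agxt2, a mitochondrial aminotransferase, Dhtkd1 of lysine and tryptophan breakdown, Mccc2 of leucine breakdown and the glutamine transporter Slc38a3, which fell by 1.51, 1.4, 1.32 and 1.43 on the log2 scale.

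Lipid genes moved both ways. Of 6 tested genes of cholesterol synthesis 2 fell (median -0.43). Sc5d, a late desaturase of the pathway, had 1553.2 in normal 4, 295.2 in double knockout 3 and 332.3 in double knockout 4 and fell by 2.3 ± 0.27 (adjusted p = 0.00203). Insig1, the sterol-sensing inhibitor of the pathway, had 1130.7, 407.4 and 595.6. Both double knockout livers were below the normal liver for each. Among 17 tested genes of fatty acid and triglyceride synthesis 2 rose and 1 fell (median -0.01). For 3 of the 17, both rises among them, the normal signal was below 32.1, so they passed the filter through the double knockout livers alone. Of the other 14, none rose and 1 fell (median -0.41). Elovl7, an elongase of long fatty acids, had 23.7, 1582.2 and 1761.7 (log2 rise 5.93 ± 0.28, adjusted p = 9.17e-05). Fads3, of the desaturase family, had 28.5, 157.2 and 208.5, and Agpat2, which makes phosphatidic acid, had 5023.2, 2319.6 and 2833.9 and fell by 0.97 on the log2 scale. Elovl7 was the extreme of the lipid genes and its probe set carries the suffix x_at, which marks probes that may also match other transcripts.

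In fatty acid oxidation 2 of 8 tested genes rose and 2 fell (median 0.46), none of these calls being kept without the trend. Ppara, the nuclear receptor that drives oxidation genes, had 3145.9 in normal 4, 1392.1 in double knockout 3 and 1473.3 in double knockout 4 and fell by 1.13 ± 0.23 (adjusted p = 0.0201). Vnn1, a pantetheinase and known PPAR alpha target, had 1158.2, 4112 and 6598.2 (log2 rise 2.17 ± 0.31, adjusted p = 0.00519). The receptor was thus lower and this target higher in both double knockout livers. Acsm5, a medium-chain acyl-CoA ligase, fell by 1.88, and Acot2, a mitochondrial thioesterase, rose by 1.47 on the log2 scale.

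Of 12 tested genes of xenobiotic metabolism 4 rose and 3 fell (median -0.01). Sult2a8, a sulfotransferase abundant in mouse liver, had 15770.8 in normal 4, 634.4 in double knockout 3 and 1432.7 in double knockout 4 and fell by 4.04 ± 0.43 (adjusted p = 0.00156). Cyp26b1, which breaks down retinoic acid, had 35.8, 373.1 and 358.3 (log2 rise 3.22 ± 0.34, adjusted p = 0.00148). Cyp2u1, a fatty acid hydroxylase, had 628.7, 121 and 107.7, and fell by 2.42 ± 0.33. Cyp4a31, of the lauric acid hydroxylase family, had 184, 1075 and 1190.3 (log2 rise 2.6 ± 0.26). In each of these 4 the double knockout livers lay together on one side of the normal liver, but Cyp4a31 and Sult2a8 have close relatives, and the share of their signal that comes from another family member is not known here. Cyp4f39 and Fmo2, a flavin monooxygenase, rose by 2.04 and 1.91, and Cyp2r1, a vitamin D hydroxylase, fell by 1.47. The uptake transporter Slco2b1 fell by 1.14 ± 0.24 (1834.4, 805 and 854.7), which with Abcc4 makes 2 calls in opposite directions among 3 tested genes of bile acid synthesis and transport.

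Secreted and endocrine genes of hepatocytes were few among the additional probe sets. Of 7 tested genes of complement, coagulation and plasma proteins 2 fell and none rose by limma's call (median -0.5, with 1 higher at an unadjusted p under 0.05). C2, a complement protease, had 4348.1 in normal 4, 839.6 in double knockout 3 and 602.9 in double knockout 4 and fell by 2.6 ± 0.28 (adjusted p = 0.0015). Igf1, the growth hormone target that circulates as a growth factor, had 8385.3, 2369.9 and 1687.5 and fell by 2.07 ± 0.27 (adjusted p = 0.00354). Both were lower in each double knockout liver, and the call of Igf1 was not kept without the trend. Among 7 tested genes of the growth hormone axis and of sex-biased expression 2 rose and 3 fell (median -0.53), the falls being Igf1, Nudt7, a peroxisomal diphosphatase of coenzyme A, and Susd4, a complement regulator. Nudt7 had 11828.5, 1364.5 and 1215.4 and fell by 3.2 ± 0.23 (adjusted p = 0.000329), and Susd4 had 470.3, 91.2 and 96. The rises were Fmo2 and Atp6v0d2, a proton pump subunit (66.3, 207.7 and 280.2).

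Of 16 tested hepatocyte transcription factors 2 rose and 2 fell (median -0.3). Klf6, an early-response zinc finger factor, had 79.7 in normal 4, 464.5 in double knockout 3 and 376.1 in double knockout 4 (log2 rise 2.34 ± 0.32, adjusted p = 0.00442). Rora, a nuclear receptor of the clock and of lipid genes, rose by 1.27 ± 0.26 (545.8, 1486.5 and 1173.4). Nfia, a nuclear factor I protein, fell by 1.43 ± 0.34 (1418, 681.4 and 402.4), and the other fall was Ppara. Of the 4 calls only that of Klf6 was kept without the trend. Interferon response genes had 2 falls among 11 tested (median -0.58), against 3.32% of genes falling: Gbp6, a guanylate-binding protein, with 1855.5, 576.5 and 425, and Ifi27 with 1863, 816.4 and 703.4. Both were lower in each double knockout liver, again without being called when the trend was left out.

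Cholangiocyte and epithelial genes had 2 rises among 10 tested (median 0.4). Bicc1, an RNA-binding protein of epithelial tubules, had 219.3 in normal 4, 1089.6 in double knockout 3 and 1021.6 in double knockout 4 (log2 rise 2.25 ± 0.25, adjusted p = 0.00185), and Gprc5a, a retinoic acid-induced receptor, had 39.9, 139.5 and 133.7. Lrat, which esterifies retinol in stellate cells, had 345.8, 1846.5 and 1590.1 (log2 rise 2.3 ± 0.25, adjusted p = 0.00156). It was the only stellate marker whose reading in the marker check came from an additional probe set. These 3 were higher in both double knockout livers, as were the summed cholangiocyte and stellate markers over the whole array. The part of those markers' cells in these rises was not tested. By their additional probe sets Sox9 (49.3, 32.8 and 17.4) and Epcam were lower in both double knockout livers, without a call. Lists without any limma call were fetal liver and progenitor genes (3 tested), imprinted genes (7), Hippo and Notch (7), Wnt and TGF beta (11) and the circadian clock (6). At an unadjusted p under 0.05 these gave 0, 1, 2, 2 and 1 genes, and none was called without the trend. Among them Jag1, a Notch ligand, had 137.4, 346.9 and 228 (adjusted p = 0.139), and Lgr4, a receptor for R-spondins, had 2798.6, 1569 and 1786.2 (adjusted p = 0.0944).

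**Figure D3:**
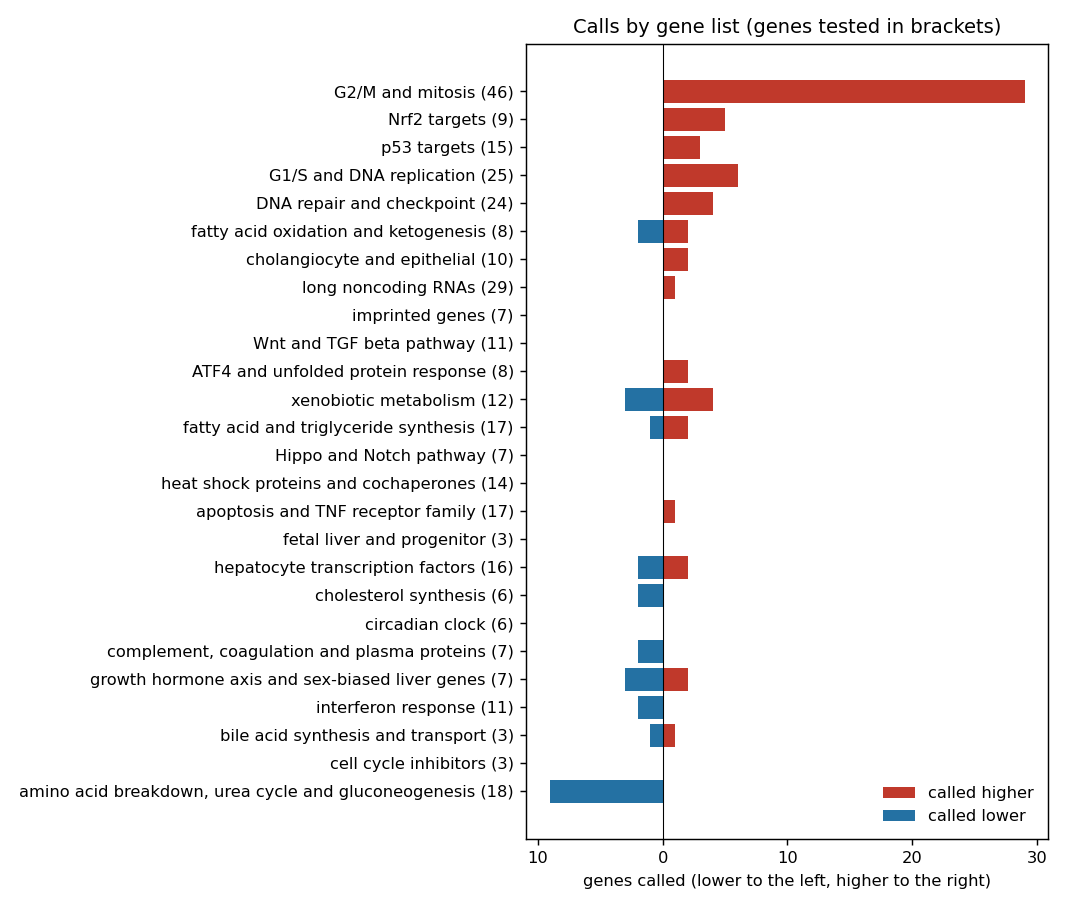
Bars count, for each gene list, the genes with an additional probe set that rose (red, to the right) or fell (blue, to the left) by limma; the number tested is in brackets and lists are ordered by their median log2 difference. The mitosis list has 29 rises of 46 and the amino acid list 9 falls of 18.

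The 15 largest rises among genes that 430A does not read went beyond these lists. Apart from Slc16a5, Abcc4 and Arhgap11a, their normal signals were below 32.1. Those genes passed the filter through the double knockout livers alone and so had to differ. Tekt5, a filament protein of sperm flagella, was the largest, with 5.7 in normal 4, 658 in double knockout 3 and 460.1 in double knockout 4 (log2 rise 5.87 ± 0.4, adjusted p = 0.000288). Styk1, a kinase-like membrane protein, had 3.5, 335.2 and 369.2 (log2 rise 5.61 ± 0.42). Glis3, a zinc finger factor known from pancreatic beta cells and thyroid, had 3.7, 293.1 and 215.5 (log2 rise 5.09 ± 0.48). All 3 were near background in the normal liver. Slc16a5, a monocarboxylate transporter family member, had 35.6, 1287.2 and 1062.6 (log2 rise 4.9 ± 0.29, adjusted p = 0.000202). Nipal1, of a family of magnesium transporters, had 29.1, 617.2 and 772.6. Kcnv2, a silent subunit of potassium channels, had 7.3, 171.4 and 171.6. Here too the double knockout livers stood together, 15.8-fold or more above the normal liver in their mean.

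Signalling molecules were also among the 15. Gpr176, an orphan G protein-coupled receptor, had 7.9 in normal 4, 260.3 in double knockout 3 and 278.5 in double knockout 4 (log2 rise 4.54 ± 0.42). Apela, a peptide ligand of the apelin receptor, had 7.8, 360 and 165.1 (log2 rise 4.42 ± 0.56), and Rhbdf2, an inactive rhomboid that escorts the protease ADAM17, had 15.1, 399.1 and 190.6 (log2 rise 3.89 ± 0.52). Apela and Rhbdf2 differed most of the 15 between the double knockout livers, double knockout 3 being the higher, yet both livers were over 10-fold above the normal signal. All 15 were called without the trend as well, which does not remove the limit of the filter for those with a normal signal below 32.1.

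The 15 largest falls among genes that 430A does not read were led by secreted and conjugating proteins of the liver. Mup10, a major urinary protein, had 3753 in normal 4, 94.7 in double knockout 3 and 126 in double knockout 4 and fell by 5.05 ± 0.31 (adjusted p = 0.000214). Serpina4-ps1, annotated as a pseudogene of the serpin family, had 3955.7, 318.7 and 205.9 and fell by 3.93 ± 0.32. Serpina11, a further serpin, had 2935.6, 288 and 494.6 and fell by 2.95 ± 0.35. Each was lower in both double knockout livers, but the major urinary proteins are a family of near-identical copies, and the Serpina4-ps1 probe set carries the suffix x_at, so these signals may include other transcripts. Sult2a8, described above, was the second largest fall.

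Enzymes among the 15 falls included Ldhd, a D-lactate dehydrogenase, with 5573.3 in normal 4, 990.4 in double knockout 3 and 919 in double knockout 4 (log2 difference -2.54 ± 0.23, adjusted p = 0.000767). Mettl26, named as a methyltransferase-like protein, had 4095.5, 701.8 and 693.5. Glt28d2, a glycosyltransferase family member, had 424.7, 47.9 and 40.2. These were nearly equal in the double knockout livers. Trhde, the ectoenzyme that degrades thyrotropin-releasing hormone, had 252.7, 16.4 and 35, and Adcy5, an adenylyl cyclase, had 313.5, 30.8 and 51.8. Rnf152, a ubiquitin ligase of lysosomes, had 742.5, 111.2 and 126.9. Trhde and Adcy5 were called with the trend on signal level only, while Rnf152 was called in both fits.

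The remaining falls were Lin7a, a scaffold protein of cell junctions (1382.9 in normal 4, 109.2 in double knockout 3 and 78.6 in double knockout 4), Fam47e (1091, 90.8 and 79.1), Rfx4, a winged-helix factor (291.4, 36.5 and 47.5), Tsacc, a cochaperone of a testis kinase (227, 45.6 and 17.8), and the antisense transcript Hectd2os. In each the normal liver was the highest of the 3. Of the 15 falls, Sult2a8, Hectd2os, Trhde, Serpina11, Adcy5 and Tsacc lost their call without the trend, and all are genes whose double knockout livers differed from each other more than in Mup10 or Ldhd.

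**Figure D4:**
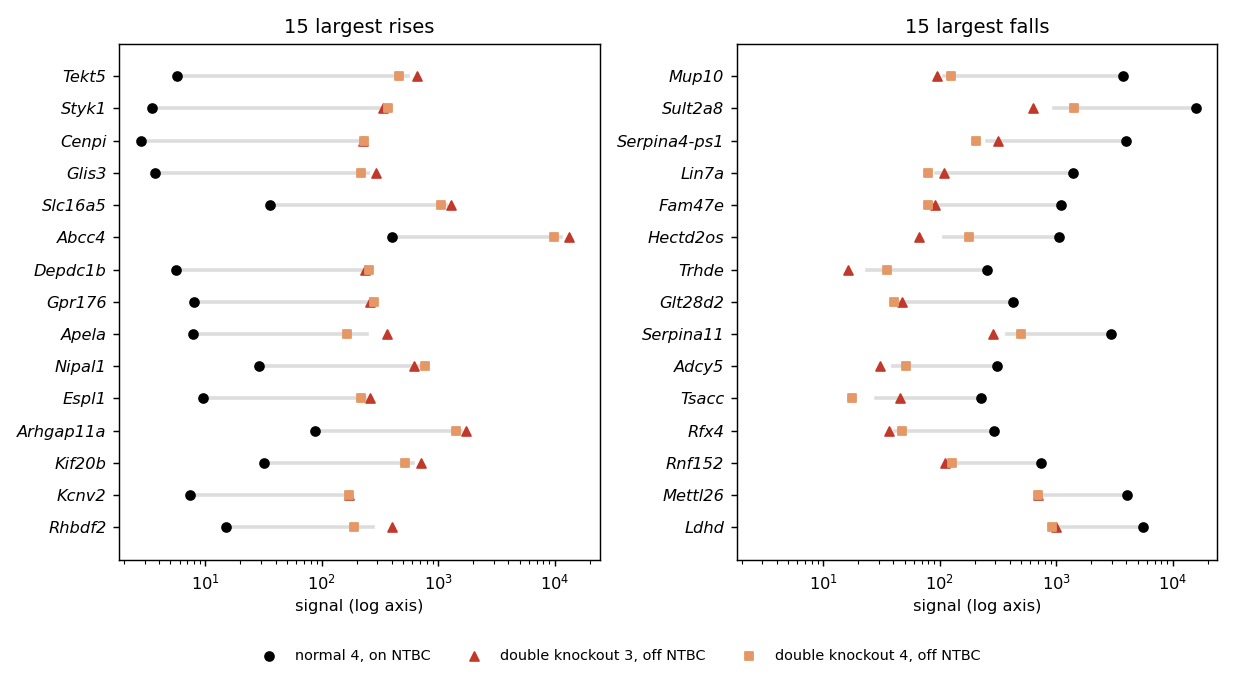
Signals (log axis) in the 3 arrays for the 15 largest rises (left) and 15 largest falls (right) among genes with no probe set in the 430A table; black circles are normal 4, red triangles double knockout 3, orange squares double knockout 4, and grey lines join normal 4 to the geometric mean of the double knockout livers. The normal signals of the rises lie mostly below 40, Arhgap11a (87.1) and Abcc4 (397.9) being the exceptions.

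Additional probe sets of genes that 430A also reads gave a second reading of the same gene. Slc7a11, Elovl7, Cenpe, Bub1b and Ddit4l, described above, and Abcd2, a peroxisomal transporter of very long fatty acids (12.8 in normal 4, 386.7 in double knockout 3 and 650.4 in double knockout 4), were the 6 largest rises. The largest fall was Cmah, the hydroxylase that makes N-glycolylneuraminic acid, with 3009.9, 235.1 and 262.3 (log2 difference -3.58 ± 0.26, adjusted p = 0.000341). Syt1, a calcium sensor of vesicle release, had 782.3, 58.5 and 66.7 (log2 difference -3.57 ± 0.36). After Nudt7 came Slc1a2, a glutamate transporter (448.6, 33.4 and 77.3), Maml1, a Notch coactivator (126.4, 12.1 and 15.1), and Mfsd4b1, of a transporter family (3390.8, 421.4 and 524.1). All were higher in the normal liver than in either double knockout liver. Among the 6 rises only Ddit4l had a normal signal above 32.1, so the other genes passed the filter through the double knockout livers alone.

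For 2136 genes both an additional and a shared probe set were tested, the brightest of each kind standing for the gene. Both were called the same way in 81 genes, 51 up and 30 down, and none was called in opposite directions by limma, though 17 genes had opposite signs at an unadjusted p under 0.05 in both, beside 225 with the same sign. The additional probe set alone was called in 85 genes, in 69 of which the shared one differed in the same direction, and the shared one alone in 173. Hence 48.8% of the genes called by the additional probe set were also called by the shared one, and 31.9% the other way round. The additional probe set was the dimmer of the pair in 1520 genes (71.2%). Across the 2136 genes, which are not independent replicates and share the same 3 arrays, the log2 differences of the pair had a Pearson r of 0.57 and a Spearman rho of 0.45.

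Where both probe sets of a gene were called, the size could still differ. Plet1, an epithelial surface protein, had 43.3 in normal 4, 695.3 in double knockout 3 and 601.6 in double knockout 4 by the additional probe set (log2 rise 3.79) and 3.6, 1502.3 and 1303.5 by the shared one (log2 rise 7.57). Ets2, a transcription factor, went the other way, with 11.6, 307.9 and 280.5 (log2 rise 4.27) against 386.9, 2031.5 and 1814.5 (log2 rise 2.3). Syt13, a synaptotagmin, rose by 4.41 by the additional and 1.93 by the shared probe set, Cenpe by 5.22 and 2.85, Tuba8, an alpha tubulin, by 2.03 and 3.97, and Dlgap5, a spindle protein, by 2.21 and 4.11. In these 6 genes the direction was the same and the steeper of the pair was the one with the lower normal signal. Epcam, an epithelial adhesion molecule, had no call by its additional probe set (105.7, 89 and 78.9, adjusted p = 0.701), whereas the shared one rose (33.8, 219.5 and 174.9, adjusted p = 0.0102).

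**Figure D5:**
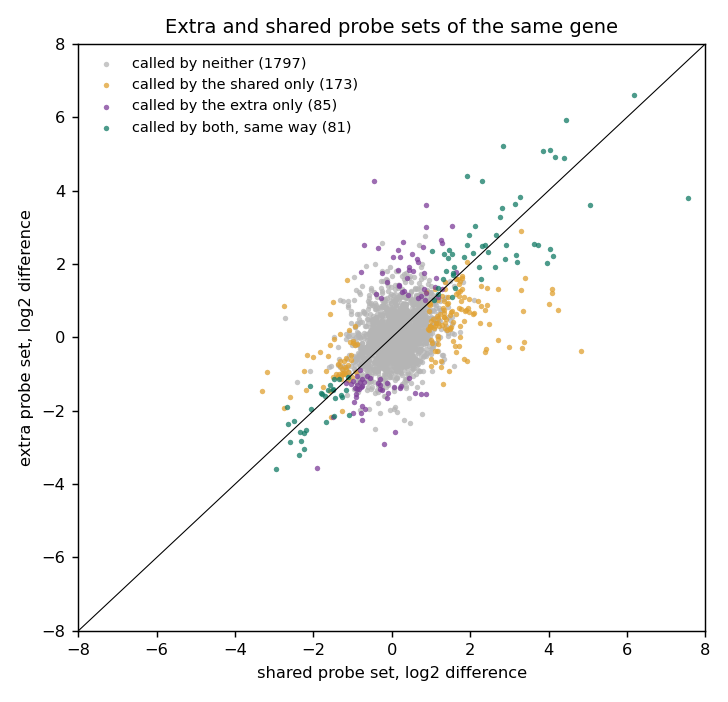
Each point is 1 of 2136 genes, placed by the log2 difference of its shared (horizontal) and additional, here labelled extra, probe set (vertical) between the double knockout livers and normal 4. Green marks the 81 called the same way by both, purple the 85 called by the additional and ochre the 173 called by the shared probe set alone; the diagonal marks equal differences.

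Of 1269 genes with an additional probe set that RefSeq annotates as long noncoding or antisense RNA, 366 were bright enough to be tested, 18 rose and 9 fell (7.38%, against 9.2% of 5000 tested protein-coding genes). Of 11 tested host genes of small nucleolar RNAs (Snhg genes), a group picked after its values were seen, 3 rose and 8 were not called (median 0.62). Snhg10 had 88.6 in normal 4, 661.7 in double knockout 3 and 467.1 in double knockout 4 (log2 rise 2.6 ± 0.33, adjusted p = 0.00316), Snhg16 had 41, 210.6 and 292.6 (log2 rise 2.49 ± 0.39), and Snhg3 had 63.7, 263.3 and 212.1 (log2 rise 1.83 ± 0.37). The double knockout livers were higher for all 3, and none of the 3 calls was kept without the trend. Snhg10, Snhg16, Gm32461 and Malat1 were named after their values were seen. Hectd2os, an antisense transcript, had 1053.1, 66.7 and 179.9 and fell by 3.22 ± 0.54 (adjusted p = 0.00992). The transcript Gm32461 had 497.3, 33.2 and 34.4 and fell by 3.74 ± 0.43 (adjusted p = 0.0021), a call kept without the trend. Malat1, an abundant nuclear RNA, had 260.2, 1574.9 and 437.4 by its brighter additional probe set (adjusted p = 0.159). The spread between the double knockout livers was thus far larger for Malat1 than for Gm32461. Pvt1, a transcript encoded beside Myc, had 70.4, 185.2 and 200.4 (adjusted p = 0.052). How far an antisense signal includes the partner gene was not tested.

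Among the 2258 tested additional probe sets without any symbol 35 rose and 35 fell (3.1%, against 6.97% of all tested additional probe sets, a difference that was not tested). The share was 1.55% in each direction.

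The double knockout livers themselves differed in level. Of the 10106 tested additional probe sets 1538 (15.2%) differed at least 2-fold between them, 1348 lower and 190 higher in double knockout 4, and the median difference of double knockout 4 from double knockout 3 was -0.21 on the log2 scale. Against normal 4 the median was 0.13 in double knockout 3 and -0.14 in double knockout 4. Limma takes its spread from the gap between the double knockout livers, so a call itself favours a small gap. Among the 704 called, 34 differed 2-fold between the livers. The widest gaps among these belonged to a second, dimmer Lin7a probe set (371.8 in normal 4, 2.2 in double knockout 3 and 41.8 in double knockout 4), to a Rtn4 probe set (4.6, 556.5 and 109.1), Rtn4 being a membrane-shaping protein of the endoplasmic reticulum, and to Hectd2os. Next came S100a10, a partner of annexin A2 (58.8, 463.4 and 189.3), a second Cdca8 probe set (60.1, 414.6 and 171.4) and Usp19, a deubiquitinase (30.1, 247.2 and 104.5). In all 6 the double knockout livers were on the same side of the normal liver, which the choice among called probe sets also favours. Of the 704 called, 102 carry the suffix x_at or s_at, which marks probes shared with other transcripts. Genes named above by an x_at probe set include Elovl7, Serpina4-ps1, Abcc5, Mcm5, C2, Adcy5, Ets2 and Sulf2. Those named by an s_at probe set include Bub1b, Nek2, Cdca8, Pck1, Nudt7, Vnn1, Klf6 and Plet1.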

How the data were processed

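RNA from liver was hybridised to 3 Affymetrix 430 2.0 arrays. The submitters' processing notes name GCOS 1.4.0.036 and MAS5 for the intensity signals that the authors deposited. Their means, trimmed at the 2nd and 98th percentile, were 349.5, 349.6 and 349.6, so the arrays share a scale. No pair of arrays shared more than 0.426% identical signals. The 430A table (9 arrays) was read only for its identifiers. Signals were taken to log2(signal + 3.8), the 10th percentile of the table. Probe sets were tested with limma 3.58.1 in R 4.3.3 (lmFit, eBayes with trend, 1 residual and 6.39 prior degrees of freedom), and p-values were adjusted by Benjamini-Hochberg over 27022 probe sets. On simulated data the script recovered the fold changes, but false calls exceeded the intended rate in most runs and varied in number, so adjusted p-values may be too small. Detection calls were not used here, and the number of arrays limits the precision.

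Symbols came from GEO's platform annotation, 14390 of the 14565 being matched to RefSeq's GRCm38.p6 table by Entrez identifier. The additional probe set with the highest average log2 signal stood for its gene. The text names 15 rises and 15 falls, the largest of genes not in 430A (called, at least 2-fold in both livers, no clone names), 6 rises, 6 falls and 6 disagreements among genes also in 430A, up to 4 called members of each list (or the 2 of smallest p where fewer than 2 were called), Fah and Cdkn1a. Further list members, markers and noncoding RNAs were named after their values were seen. The members and gene lists were chosen with earlier results of these data known. Plots used matplotlib 3.10.9 (Python 3.11.15).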

Additional observations from a re-analysis of the deposited data

How the results depend on the processing

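The alternatives were no offset or one at the 25th percentile, no filter, a filter at the 60th percentile or on 2 arrays, a common median, quantile normalization, limma in its robust form or with no trend, a 4-fold minimum, averaging a gene's probe sets, and leaving out either double knockout liver. The 89 named probe sets with a call kept their direction under every alternative that tested them, and 50 also kept their call under all of these. Without the filter 189 probe sets were called (123 higher, 66 lower, 188 of them shared with the 704), 142 genes, 28 pairs, 44 genes over all lists against 88, 16 mitosis genes, 4 amino acid genes and 55 of the 89; 3575 passed 2-fold and 24.4% differed 2-fold between the livers. With the filter at the 60th percentile 291 rose, 616 passed 2-fold, 8.05% differed between the livers and 15 mitosis genes were called, fewer genes being tested. With a common median 1113 were called, 534 of them lower. Rises were 52% of the calls there and 53.6% after quantile normalization, which gave medians of -0.14 and -0.15. Without the trend 200 were called (148 higher, 52 lower), 140 genes, 24 pairs, 44 list genes, 2 amino acid genes and 57 of the 89. At 4-fold 285 qualified. With 1 double knockout liver left out, 2134 to 2657 probe sets passed 2-fold, a value with no test, the lower count without double knockout 3. The causes of these differences were not tested. No paired analysis was possible because the groups share only replicate number 4. The lone normal array has no measured spread, 1 residual degree of freedom makes limma's calls depend on its prior, and dim signals limit most additional probe sets.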
